A study of Arabidopsis thaliana with 9 samples.

Results

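The genes described here are BCAT4, GSTU20 and AT2G31790 (UGT74C1), which act in the synthesis of aliphatic glucosinolates, measured in roots of Arabidopsis thaliana seedlings (ecotype Wassilewskija). Members were the probe sets of the array table annotated to one of these genes alone, with the brightest probe set kept for each gene. Each gene had 1 such probe set, so the members were 3 of the 22810 probe sets in the table, and all 3 were among the 15818 that passed a filter on low signal and were tested. Seedlings grown for 5 d in the light at ambient pressure were moved for 24 h to 1 of 3 atmospheres. The 97 kPa group stayed at ambient pressure and is the control. The 50 kPa group was held at low pressure, where the partial pressure of oxygen fell with that of the air. The 50 kPa/NormOx group was held at 50 kPa with oxygen added to a partial pressure of 21 kPa. Each group had 3 arrays, each made from the pooled roots of several plants, and the 3 samples of a group came from 3 chambers.

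Glucosinolates are sulfur-rich defence compounds of the cabbage order, kept apart from the myrosinases that break them down into toxic products when tissue is damaged. Aliphatic glucosinolates start from methionine, whose side chain is first lengthened by repeated cycles of condensation. The lengthened amino acid is then turned into the core structure by oxidation to an aldoxime, addition of sulfur from glutathione, cleavage, transfer of glucose and sulfation, and the side chain may be altered afterwards. BCAT4 is the aminotransferase that removes the amino group of methionine and so opens chain elongation. GSTU20 is a glutathione S-transferase of the tau class that has been assigned to the step at which glutathione is joined in the core pathway. UGT74C1 is a glucosyltransferase that transfers glucose to the thiohydroximate of the core structure.

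Signals were MAS5 values, which are linear, in arbitrary units, and scaled by the authors so that each array had the same trimmed mean. The median signal of an array lay between 196 and 217. Arrays of the same group correlated at r of 0.944 to 0.965 over the tested probe sets and arrays of different groups at 0.935 to 0.960. The ratio of the 3' to the 5' probe set of GAPDH, a measure of RNA integrity, was 5.39 to 6.39 in the 97 kPa group, 4.40 to 5.11 in the 50 kPa group and 4.51 to 5.57 in the 50 kPa/NormOx group. All 50 kPa arrays were below all 97 kPa arrays in this ratio, and its part in the results below was not tested. Of 9 root marker genes, the 2 with a listed probe set, PYK10 and EXPA7, were measured on every array, and their summed signal was 16078 to 21838 over the 9 arrays. Nearly all of this sum was PYK10, which is also among the glucosinolate breakdown genes below. EXPA7 alone had a signal of 201 to 466. Of 9 markers of green shoot tissue, 4 had a listed probe set (RCA, LHCB4.1, PORB and STOMAGEN). In the 97 kPa group their summed signal was 6034 to 8403, in the 50 kPa group 8611 to 14092 and in the 50 kPa/NormOx group 4992 to 12481, with the highest 50 kPa/NormOx value on replicate 2.

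BCAT4, at the entry to chain elongation, had its lowest mean at 50 kPa/NormOx. Its signal was 13186, 14222 and 11851 on the 97 kPa arrays, 8098, 10756 and 14319 on the 50 kPa arrays, and 8595, 8007 and 8226 on the 50 kPa/NormOx arrays. The 50 kPa/NormOx arrays lay close together and below all 97 kPa arrays. The 50 kPa arrays spread over both ranges: replicate 1 was within the 50 kPa/NormOx range and replicate 3 was above the highest 97 kPa array. The mean of the 97 kPa group was 13086 ± 1189 (SD, n = 3), that of the 50 kPa group 11058 ± 3122 (SD, n = 3) and that of the 50 kPa/NormOx group 8276 ± 297 (SD, n = 3).

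The BCAT4 signal was 1.58-fold lower at 50 kPa/NormOx than at 97 kPa. The log2 change was -0.66 ± 0.16 (SE), with a 95% interval from -1.0 to -0.32. In limma, where all 9 arrays shared 1 fit, the unadjusted p was 0.000843, which ranked 154 among the 15818 tested probe sets. The Benjamini-Hochberg adjusted p from the same limma fit was 0.0864, above the threshold of 0.05, so that BCAT4 was not called. The value did pass when the 50 kPa arrays were left out and limma was run on the 6 arrays compared (adjusted p = 0.0143), and when 50 kPa replicate 1 (adjusted p = 0.0245) or 50 kPa replicate 3 (adjusted p = 0.0377) was left out of the fit. The log2 change was the same in all 3 cases, while its standard error was 0.10, 0.12 and 0.12 in place of 0.16. In bulk roots, fewer cells with the transcript and less transcript per cell cannot be told apart.

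Against 97 kPa, the BCAT4 signal at 50 kPa was lower by a log2 change of -0.28 ± 0.16 (SE; limma adjusted p = 0.620), with a 95% interval from -0.62 to 0.06. Against 50 kPa/NormOx it was higher at 50 kPa by 0.38 ± 0.16 (SE; limma adjusted p = 0.502), with an interval from 0.04 to 0.72. The groups overlapped in both comparisons and neither difference passed the test. Single 50 kPa arrays moved these values widely. Without 50 kPa replicate 1 the change from 97 kPa was -0.07, and without 50 kPa replicate 3 it was -0.48. The difference from 50 kPa/NormOx was 0.59 without replicate 1 and 0.17 without replicate 3.

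GSTU20, placed at the glutathione step, was likewise lowest in mean at 50 kPa/NormOx. Its signal was 16456, 14618 and 12135 at 97 kPa, 10628, 15221 and 16575 at 50 kPa, and 10126, 11014 and 11105 at 50 kPa/NormOx. Every 50 kPa/NormOx array was below every 97 kPa array. At 50 kPa, replicate 1 again lay within the 50 kPa/NormOx range, while replicates 2 and 3 lay within or above the 97 kPa range. The group means were 14403 ± 2169 (SD, n = 3), 14141 ± 3117 (SD, n = 3) and 10748 ± 541 (SD, n = 3) in the same order of groups.

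The GSTU20 signal was 1.33-fold lower at 50 kPa/NormOx than at 97 kPa, a log2 change of -0.41 ± 0.15 (SE; limma adjusted p = 0.265) with a 95% interval from -0.74 to -0.09. It differed little in mean between 50 kPa and 97 kPa. There the log2 change was -0.04 ± 0.15 (SE; limma adjusted p = 0.961), the interval ran from -0.37 to 0.28, and the sign turned under 3 settings: to 0.041 when the array medians were set equal, to 0.06 without 97 kPa replicate 1 and to 0.15 without 50 kPa replicate 1. Against 50 kPa/NormOx the 50 kPa signal was higher by 0.37 ± 0.15 (SE; limma adjusted p = 0.499), with an interval from 0.05 to 0.70. That difference was 0.56 without 50 kPa replicate 1 and 0.24 without 50 kPa replicate 3.

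UGT74C1, the glucosyltransferase, was lower than at 97 kPa on all 6 low-pressure arrays. Its signal was 1291, 1270 and 1138 at 97 kPa, 804, 1122 and 1045 at 50 kPa, and 732, 772 and 996 at 50 kPa/NormOx. The 3 ambient arrays stood above the other 6, although 50 kPa replicate 2 was close to the lowest of them. The 2 low-pressure groups overlapped each other, with 50 kPa replicate 1 and 50 kPa/NormOx replicate 3 lying in the shared range. The group means were 1233 ± 83.0 (SD, n = 3), 990.4 ± 166 (SD, n = 3) and 833 ± 143 (SD, n = 3) in the same order.

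The UGT74C1 signal was 1.49-fold lower at 50 kPa/NormOx than at 97 kPa, a log2 change of -0.58 ± 0.17 (SE; limma adjusted p = 0.155) with a 95% interval from -0.93 to -0.22. At 50 kPa it was 1.26-fold lower than at 97 kPa, a log2 change of -0.33 ± 0.17 (SE; limma adjusted p = 0.557) with an interval from -0.68 to 0.02. That change was -0.18 without 50 kPa replicate 1. The difference between 50 kPa and 50 kPa/NormOx was 0.25 ± 0.17 (SE; limma adjusted p = 0.691), with an interval from -0.10 to 0.60, and it was 0.39 without 50 kPa replicate 1, 0.15 without 50 kPa replicate 2, 0.16 without 50 kPa/NormOx replicate 1 and 0.38 without 50 kPa/NormOx replicate 3.

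**Figure D1:**
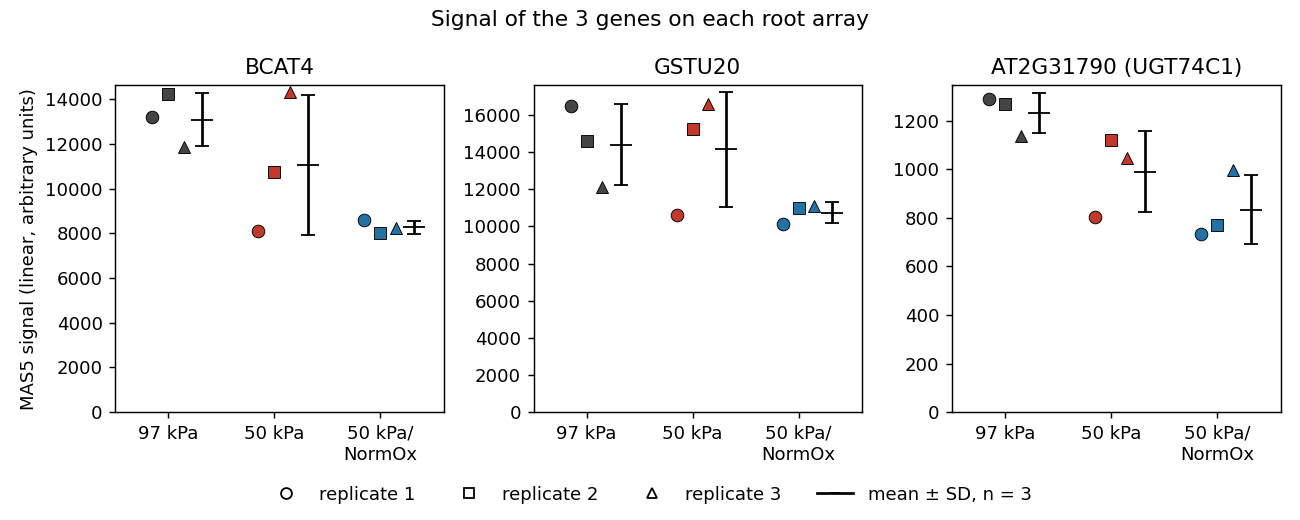
MAS5 signal (linear, arbitrary units, axis from 0) of BCAT4, GSTU20 and UGT74C1 on each of the 9 root arrays, with symbols for replicates and bars for mean ± SD (n = 3). For each gene the 3 arrays at 50 kPa/NormOx lie below the 3 arrays at 97 kPa, while the 50 kPa arrays are spread wider, with replicate 1, the lowest, inside the 50 kPa/NormOx range and replicate 3 above the highest 97 kPa array for BCAT4 and GSTU20.

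No member passed the adjusted threshold in any of the 3 comparisons. The members were chosen with earlier results of these data known, so the counts that follow describe them and are not a test. Between 50 kPa/NormOx and 97 kPa, limma called 62 of 15818 probe sets, or 0.392%, and 0 of the 3 members. At an unadjusted p under 0.05, 7.14% of the tested probe sets were lower at 50 kPa/NormOx, and so were all 3 members. Arrays that did not overlap, with 50 kPa/NormOx lower, were found for 10.3% of the tested probe sets and for 3 of 3 members. The members' changes stood at percentile 4.33 (BCAT4), 6.06 (UGT74C1) and 12.1 (GSTU20) of all tested changes, counted from the most negative, where the median change was -0.02.

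Between 50 kPa and 97 kPa, limma called 15 probe sets, or 0.0948%, and 0 of 3 members. At an unadjusted p under 0.05 the lower probe sets were 5.13% of those tested and again 0 of 3 members. Non-overlapping arrays, with 50 kPa lower, were found for 9.77% of tested probe sets and for 1 of 3 members, UGT74C1. Between 50 kPa and 50 kPa/NormOx the calls were 13 probe sets, or 0.0822%, and 0 of 3 members. At an unadjusted p under 0.05, 4.37% of tested probe sets and 2 of 3 members, BCAT4 and GSTU20, were higher at 50 kPa. The comparisons share arrays, so their values are given side by side and not as separate evidence. By the rule of the study's methods (unadjusted p under 0.01 and at least 2-fold) 0 of 3 members passed in any comparison, their largest difference being 1.58-fold. That rule took 0.639% of the tested probe sets for 50 kPa against 97 kPa, 0.898% for 50 kPa/NormOx against 97 kPa and 0.443% for 50 kPa against 50 kPa/NormOx.

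A further comparison, chosen after the members' values had been seen, set the mean of both low-pressure groups against 97 kPa. BCAT4 was lower by a log2 change of -0.47 ± 0.14 (SE; limma adjusted p = 0.188), UGT74C1 by -0.45 ± 0.14 (SE; limma adjusted p = 0.223) and GSTU20 by -0.23 ± 0.13 (SE; limma adjusted p = 0.539). In that comparison 0.234% of the tested probe sets were called and 0 of 3 members. For GSTU20 the value became -0.12 on leaving out 97 kPa replicate 1, -0.34 on leaving out 97 kPa replicate 3, and -0.13 when 50 kPa replicate 1 was dropped. UGT74C1 was the member whose 6 low-pressure arrays all lay below the 3 ambient arrays, as did 3.74% of the tested probe sets. BCAT4 passed this comparison when 50 kPa replicate 3 was left out (log2 change -0.57, limma adjusted p = 0.0430).

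The spread between replicates differed among the groups. For BCAT4 the coefficient of variation was 9.08% in the 97 kPa group, 28.2% in the 50 kPa group and 3.59% in the 50 kPa/NormOx group. For GSTU20 it was 15.1%, 22.0% and 5.03% in the same order, and for UGT74C1 it was 6.74%, 16.8% and 17.1%. All 3 genes were lowest among the 50 kPa arrays on replicate 1, where the log2 signal lay below the 97 kPa mean by a difference of -0.69 for BCAT4, -0.43 for GSTU20 and -0.61 for UGT74C1. On 50 kPa replicate 3 the same difference was 0.13 for BCAT4, 0.21 for GSTU20 and -0.24 for UGT74C1. The residual SD over the 9 arrays, on the log2 scale, was 0.25 for BCAT4, 0.24 for GSTU20 and 0.21 for UGT74C1, beside a median of 0.26 over all tested probe sets. Most of those were dimmer: by mean signal BCAT4 stood at percentile 98.3, GSTU20 at 98.7 and UGT74C1 at 80.2. The standard error of the BCAT4 change between 50 kPa/NormOx and 97 kPa was 0.16 with an intensity trend in limma and 0.20 without it.

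The rest of the pathway was read from lists by role with 85 gene entries, of which 14 had a probe set annotated to that gene alone. Of these, 13 were tested, and AOP3 was below the filter on low signal. The entries on indolic synthesis and on sulfur supply had 0 such probe sets and were not analysed here. Of the 13 tested genes, 0 were called by limma in any of the 3 comparisons. Between 50 kPa/NormOx and 97 kPa, 10 of the 13 were below 0 and the median log2 change was -0.42, and without the members it was -0.37 over 10 genes. Over all tested probe sets the median was -0.02. At an unadjusted p under 0.05, 6 of the 13 were lower, beside 7.14% of all tested probe sets, and 0 were higher, beside 5.52%. The 6 included the 3 members, which were chosen with earlier results of these data known. Without the members, 3 of 10 were lower and 0 were higher. Between 50 kPa and 97 kPa the median was -0.07, with 0 lower and 1 higher (4.25% of all tested probe sets) at that level. Between 50 kPa and 50 kPa/NormOx it was 0.30, with 0 lower (4.68% of all tested probe sets) and 2 higher (4.37%). The 2 were the members BCAT4 and GSTU20, and without the members 0 of 10 were higher. The medians over all tested probe sets were -0.04 and -0.02 for these 2 comparisons.

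**Figure D2:**
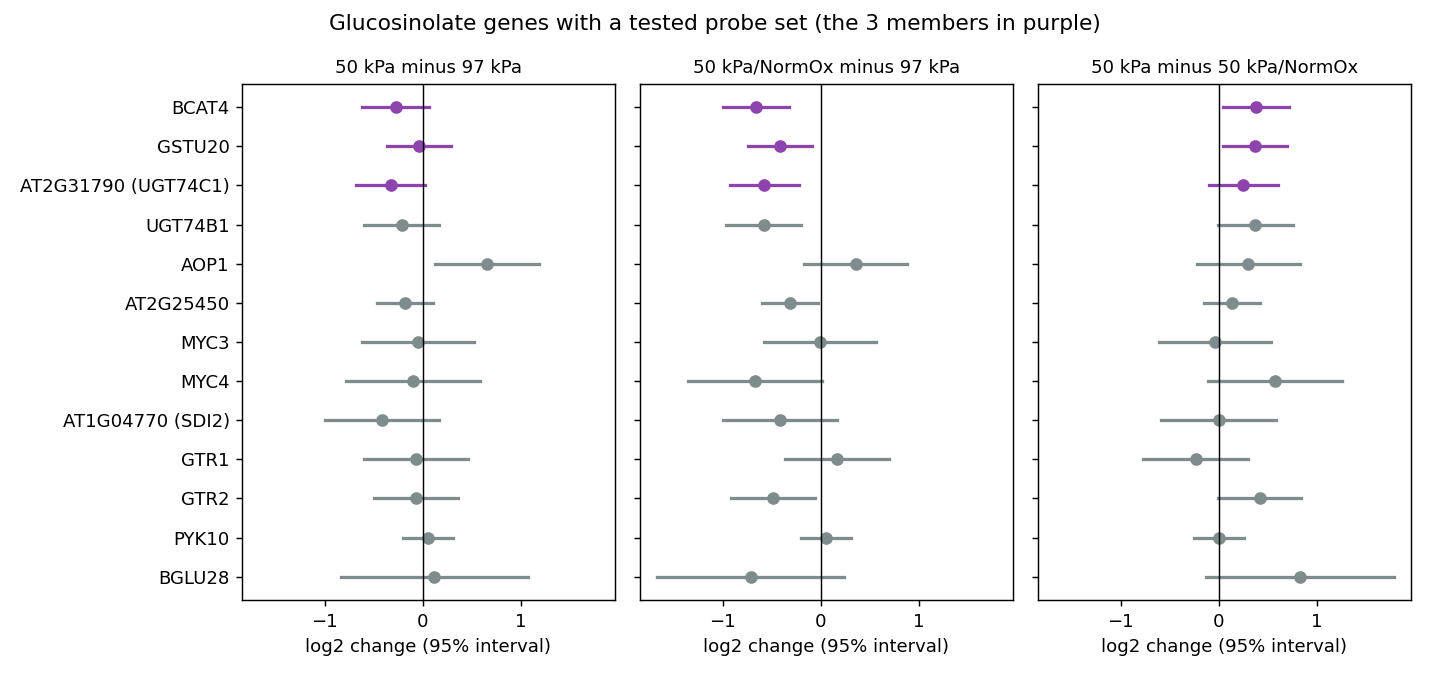
Log2 change (x axis) with its 95% interval for the 13 tested glucosinolate genes (rows) in the 3 comparisons (panels), from the limma fit of all 9 arrays. The 3 members are in purple, and between 50 kPa/NormOx and 97 kPa their intervals end below 0, at -0.32 for BCAT4, -0.09 for GSTU20 and -0.22 for UGT74C1.

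Among the other enzymes of the core and side chain, UGT74B1 varied much as UGT74C1 did. UGT74B1 is a glucosyltransferase of the same step, best known from glucosinolates made from aromatic amino acids. Its signal was 1436, 1446 and 1248 at 97 kPa, 959, 1589 and 1090 at 50 kPa, and 853, 843 and 1072 at 50 kPa/NormOx. All 50 kPa/NormOx arrays were below all 97 kPa arrays, and the log2 change was -0.58 ± 0.18 (SE; limma adjusted p = 0.182). AT2G25450, which stood on the side-chain list, had 5934, 5964 and 6526 at 97 kPa, 4349, 5576 and 6462 at 50 kPa, and 4825, 4770 and 5193 at 50 kPa/NormOx. Its 50 kPa/NormOx arrays also lay below its 97 kPa arrays, with a log2 change of -0.32 ± 0.13 (SE; limma adjusted p = 0.335).

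AOP1, a relative of the side-chain enzymes AOP2 and AOP3, ran the other way. Its signal was 154, 169 and 130 at 97 kPa, 245, 259.9 and 208 at 50 kPa, and 230.0, 145 and 212 at 50 kPa/NormOx. Each 50 kPa array was above each 97 kPa array, with a log2 change of 0.66 ± 0.25 (SE; limma adjusted p = 0.434), while 50 kPa/NormOx replicate 2 lay inside the ambient range and the change there was 0.35 ± 0.25 (SE; limma adjusted p = 0.599). Of the 6 tested genes on the aliphatic lists, 5 were lower at an unadjusted p under 0.05 at 50 kPa/NormOx than at 97 kPa. The share of all tested probe sets was 7.14%. AOP1 was not lower, and the 5 included the 3 members, which were chosen with earlier results of these data known. All 6 had a higher mean at 50 kPa than at 50 kPa/NormOx, where the median log2 change of all tested probe sets was -0.02. For AOP1 (0.30 ± 0.25, SE) and AT2G25450 (0.13 ± 0.13, SE) the log2 change was near its standard error. At an unadjusted p under 0.05, 2 of the 6 were higher at 50 kPa, the members BCAT4 and GSTU20, beside 4.37% of all tested probe sets.

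**Figure D3:**
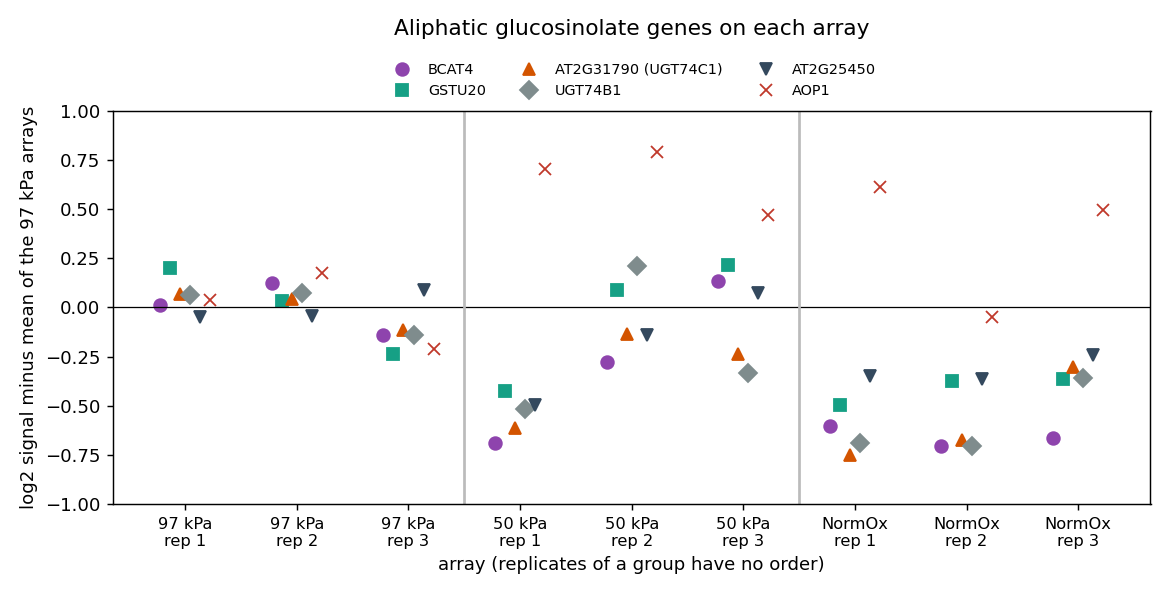
Log2 signal minus the mean of the 97 kPa arrays (y axis) for the 6 tested genes on the aliphatic lists on each of the 9 arrays (x axis). On 50 kPa replicate 1 and on the 50 kPa/NormOx arrays the members, UGT74B1 and AT2G25450 lie below 0, down to -0.75 for UGT74C1, whereas AOP1 is above 0 on all low-pressure arrays except 50 kPa/NormOx replicate 2.

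The regulators and transporters gave wider intervals than the members. MYC4, a basic helix-loop-helix factor that acts with MYB factors on glucosinolate genes, had a log2 change of -0.67 ± 0.32 (SE; limma adjusted p = 0.407) between 50 kPa/NormOx and 97 kPa. MYC3, a close relative, had -0.01 ± 0.27 (SE; limma adjusted p = 0.991). AT1G04770, annotated as SULFUR DEFICIENCY-INDUCED 2 (SDI2) and known as a repressor of glucosinolate synthesis, had -0.42 ± 0.27 (SE; limma adjusted p = 0.566). Its signal was 611, 552 and 483 at 97 kPa, 554, 548 and 225 at 50 kPa, and 436, 423 and 371 at 50 kPa/NormOx. All 50 kPa/NormOx arrays were below all 97 kPa arrays, and 50 kPa replicate 3 was far below the other arrays. GTR2, a plasma membrane importer of glucosinolates, had -0.49 ± 0.20 (SE; limma adjusted p = 0.318) and arrays that likewise did not overlap, and its partner GTR1 had 0.17 ± 0.25 (SE; limma adjusted p = 0.839).

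Of the genes of breakdown, PYK10, the abundant root β-glucosidase of endoplasmic reticulum bodies, had nearly the same mean in all groups. Its log2 change was 0.05 ± 0.12 (SE; limma adjusted p = 0.899), with a 95% interval from -0.20 to 0.31, between 50 kPa/NormOx and 97 kPa, and 0.05 ± 0.12 (SE; limma adjusted p = 0.930) between 50 kPa and 97 kPa. BGLU28, a β-glucosidase linked to sulfur deficiency, had -0.71 ± 0.45 (SE; limma adjusted p = 0.552) between 50 kPa/NormOx and 97 kPa. Its signal ranged from 63.3 to 350.4 over the arrays, and the groups overlapped.

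The members were also set beside other genes of their families and their neighbours on the chromosome, a grouping made after values had been seen. Families and neighbours were found by gene name or locus among the tested probe sets naming 1 gene, so others on the array may have been missed. Between 50 kPa/NormOx and 97 kPa, 0.392% of all tested probe sets were called. The calls included 0 of the 11 glutathione S-transferases and 0 of the 28 UDP-glycosyltransferases found, counts too small to read anything from. Among the former, GSTU20 was the fourth lowest in log2 change, after GSTL3 at -0.61, GSTU18 at -0.54 and GSTU27 at -0.45. GSTU22 and GSTU23, which lie in the same gene cluster as GSTU20 in the TAIR10.1 gene order, had 0.46 ± 0.22 (SE; limma adjusted p = 0.397) and -0.36 ± 0.23 (SE; limma adjusted p = 0.552). The median change of the UDP-glycosyltransferases found was -0.13. The 3 found of the UGT74 group were UGT74B1, UGT74C1 and UGT74D1, which takes other substrates such as auxins, and the last had -0.43 ± 0.29 (SE; limma adjusted p = 0.569). No branched-chain aminotransferase gene other than BCAT4 was found by name among these probe sets. Neighbours were the 3 nearest protein-coding genes on either side of a member. Those of BCAT4 with a tested probe set naming them alone were AT3G19680 at 0.02 and AT3G19740 at 0.05 in log2 change between the same groups. Those of UGT74C1 were AT2G31800 at -0.23, AT2G31810 at 0.05 and AT2G31820 at -0.05.

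The members' profiles over the arrays were alike. This is a description over 9 arrays from 3 groups. The values of an array share its RNA and its scaling, and group differences enter the correlation. Pearson's r of log2 signal was 0.88 between BCAT4 and GSTU20, 0.83 between BCAT4 and UGT74C1 and 0.81 between GSTU20 and UGT74C1. After the group means were taken off, r was 0.83, 0.54 and 0.76. Among the 8688 tested probe sets naming 1 gene, GSTU20 ranked 38 in likeness to BCAT4, and UGT74C1 ranked 87. BCAT4 ranked 19 in likeness to GSTU20. AT2G25450 had r of 0.89 with BCAT4, and UGT74B1 had r of 0.92 with UGT74C1, where it ranked 4.

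Of the 5 genes most like each member, UGT74B1 was the one that stood on the lists by role. For BCAT4 the 5 highest were AT1G49850 (r = 0.95), AT1G52140 (0.95), AT4G34560 (0.94), AT2G26690 (0.93), a gene of the nitrate and peptide transporter family, and FOLB1 (0.93), an enzyme of folate synthesis. For GSTU20 they were AT5G35180 (r = 0.95), AT3G13040 (0.93), AT1G26290 (0.92), AT5G01090 (0.92) and AT1G02960 (0.91). For UGT74C1 they were BRH1 (r = 0.93), a RING-H2 gene responsive to brassinosteroids, SIR (0.93), the sulfite reductase of sulfur assimilation, AT1G23130 (0.93), annotated as a polyketide cyclase or lipid transport protein, UGT74B1 (0.92) and PMEAMT (0.92), a phosphoethanolamine methyltransferase. SIR was on none of the lists by role. Its log2 change was -0.44 between 50 kPa/NormOx and 97 kPa and -0.15 between 50 kPa and 97 kPa.

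**Figure D4:**
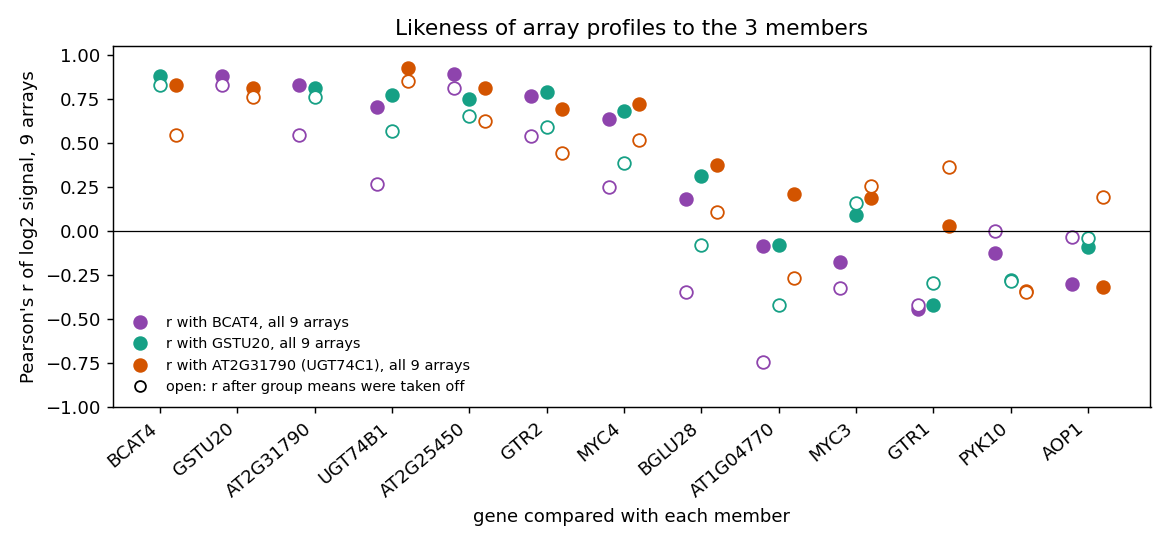
Pearson's r of log2 signal over 9 arrays (y axis) between each tested glucosinolate gene (x axis) and BCAT4, GSTU20 and UGT74C1 (colours). Filled points are over all arrays and open points are after the group means were taken off. The members, UGT74B1 and AT2G25450 lie at 0.71 or above over all arrays, while AOP1 lies below 0 with all 3 members, down to -0.32. The transporter GTR2, at 0.69 to 0.79, and the regulator MYC4, at 0.64 to 0.72, lie near the former. The open points of pairs of members lie at 0.54 to 0.83 and those of AT2G25450 at 0.62 to 0.81. Those of UGT74B1 lie at 0.27 with BCAT4, 0.56 with GSTU20 and 0.85 with UGT74C1. For GTR2 they lie at 0.44 to 0.59, for MYC4 at 0.25 to 0.52 and for AOP1 at -0.04 to 0.19.

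Over the 9 arrays, Pearson's r of log2 signal between a shoot marker and a member ran from -0.66 to 0.31. STOMAGEN, a peptide of leaf mesophyll that raises stomatal density, was the marker most unlike the members. Its r was -0.66 with UGT74C1, -0.50 with BCAT4 and -0.32 with GSTU20, an inverse relation. After the group means were taken off, its r was -0.62, -0.41 and -0.39 in the same order. LHCB4.1 had a positive r with each member over all arrays, from 0.15 to 0.31. With the group means taken off, its r was -0.17 with BCAT4, -0.03 with GSTU20 and 0.03 with UGT74C1. RCA and PORB were of mixed sign over all arrays, from -0.34 to 0.02. With the group means taken off, RCA ran from -0.29 to 0.20 and PORB from -0.41 to -0.19. Between 50 kPa and 97 kPa the marker PORB, a protochlorophyllide reductase, had a log2 change of 0.96 ± 0.26 (SE; limma adjusted p = 0.267), and STOMAGEN had 1.24 ± 0.34 (SE; limma adjusted p = 0.267). LHCB4.1 had 0.46 ± 0.23 (SE; limma adjusted p = 0.568) and RCA 0.50 ± 0.34 (SE; limma adjusted p = 0.681). For PORB, STOMAGEN and LHCB4.1 every 50 kPa array was above every 97 kPa array, while for RCA the groups overlapped. The share of all tested probe sets with arrays apart in this direction is not given here, so nothing is read from this. Among all tested changes, counted from the most negative, PORB stood at percentile 98.8, STOMAGEN at 99.5, LHCB4.1 at 93.7 and RCA at 94.9. Between 50 kPa/NormOx and 97 kPa, STOMAGEN had 0.80 ± 0.34 (SE; limma adjusted p = 0.337), RCA 0.23 ± 0.34 (SE; limma adjusted p = 0.832), PORB 0.22 ± 0.26 (SE; limma adjusted p = 0.784) and LHCB4.1 -0.26 ± 0.23 (SE; limma adjusted p = 0.699), and the arrays of all 4 overlapped. None of these was called. The part of shoot tissue in the members' values was not tested. Without replicate 2, the 50 kPa/NormOx array with the highest summed shoot marker signal, the log2 change from 97 kPa was -0.63 for BCAT4, -0.43 for GSTU20 and -0.53 for UGT74C1.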

How the data were processed

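RNA of 9 root samples was hybridized to ATH1 arrays, and the deposited intensity values were MAS5 signals made by the authors in Affymetrix Expression Console (version not given in the sources used here), scaled to a common trimmed mean of 500.1 per array. This scaling would hide a change in total mRNA, and the small number of arrays limits the precision. Samples were grouped by their titles. After 64 control and 148 organelle-encoded probe sets were left out, the lowest 30% by mean log2 signal were dropped (floor 66.7), which left 15818. Log2 signals were fitted in limma 3.58.1 (R 4.3.3) with an intensity trend, two-sided tests and Benjamini-Hochberg adjustment over all 15818, and the fit was tested on simulated data. In the table, 13513 probe sets named 1 gene, 503 several and 8794 none; 13436 of the 13513 matched TAIR10.1. Named genes were the members, up to 4 listed genes per role by smallest p, and the 5 genes most like each member by Pearson's r; the family members and neighbours were named after values had been seen. The members and lists were chosen with earlier results of these data known. Alternatives covered the filter, scaling, an offset of 32, the variance model, array weights, the choice of arrays, a replicate block, keeping organelle probe sets, another threshold and fits without single arrays. Replicate numbers came from the titles, although the description of 50 kPa replicate 2 gives it the number 3, and 0 sample columns were left unused.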

Additional observations from a re-analysis of the deposited data

Results flagged for a closer look

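The hybridization spikes, control probe sets used in no comparison, had a mean signal of 22268 over the 50 kPa/NormOx arrays (19084 to 26681). Each of these arrays was above all 97 kPa arrays (17408 to 18311). The 50 kPa arrays ran from 15888 to 20602, and the highest of them, replicate 3, was also above all 97 kPa arrays. The part of the spikes in the members' values was not tested.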

How the results depend on the processing

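Values of the members kept their direction under the alternatives run, except that the log2 change of GSTU20 between 50 kPa and 97 kPa turned to 0.041 with array medians set equal, to 0.06 without 97 kPa replicate 1 and to 0.15 without 50 kPa replicate 1, over a range of -0.17 to 0.15. The call on BCAT4 between 50 kPa/NormOx and 97 kPa, log2 change -0.66, depended on the fit: over the alternatives the limma adjusted p ran from 0.0143 to 0.309 and passed in 3 of 19, with the 6 arrays compared, without 50 kPa replicate 1 and without 50 kPa replicate 3, with log2 changes from -0.76 to -0.60. Leaving out each array in turn gave -0.73 to -0.60. Set against both low-pressure groups, the log2 change of BCAT4 ran from -0.57 to -0.37 on leaving out arrays and passed without 50 kPa replicate 3. The median of the 13 listed genes was -0.21 between 50 kPa and 97 kPa and 0.16 between 50 kPa and 50 kPa/NormOx without 50 kPa replicate 2; leaving out each array gave -0.21 to -0.032 and 0.16 to 0.39.

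Counts of called probe sets moved far more. For 50 kPa against 97 kPa the 15 calls became 27 with array medians set equal, 24 with an offset of 32, 6 without the intensity trend, 35 with array weights, 62 with the 6 arrays compared and 101 by the rule of the methods, and 8 to 53 on leaving out an array. For 50 kPa/NormOx against 97 kPa the 62 became 0 without the trend (where 0 of 3 members passed either), 121 with array weights, 103 with the 6 arrays, 142 by the rule of the methods and 2 to 104 on leaving out an array. For 50 kPa against 50 kPa/NormOx the 13 became 4 without the trend, 70 by the rule of the methods and 8 to 94 on leaving out an array. The cause of these moves was not tested. Samples with the same replicate number deviated together by r of -0.05 to 0.11, so the numbers were not taken to pair them. With the replicate number as a block, 30 probe sets were called for 50 kPa against 97 kPa and 28 for 50 kPa against 50 kPa/NormOx, and BCAT4 had an adjusted p of 0.0842 between 50 kPa/NormOx and 97 kPa. No member had another probe set of its own, so that alternative gave no value, and promoter motifs were not analysed here. The number of arrays, 3 a group, limits the precision.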
